A study of Mus musculus with 2 samples.

Results

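The genes described here are 9 members of the STAT and SOCS families, chosen by family and by name: Stat2, Stat3, Stat4, Stat5a, Stat5b, Stat6, Socs1, Socs3 and Cish, out of 24421 gene symbols counted by RNA-seq. All 9 were found in the table of counts. The rule that chose them names genes of these families, not all of them, and uses no measured value. The choice was made with earlier results of these data known. The libraries came from whole-layer back skin of wild type C57BL6/J mice. The study used female mice aged 8 weeks whose hair was in the resting (telogen) phase. The Tension library was skin stretched for 5 days by a device set to an initial 33% strain that was raised daily, the Control library was day 5 skin without strain, and skin glued to the device was discarded. Each condition has 1 library, and the number of mice behind it is not given in the sources used here. So there is no replicate to set a difference against and no p-value is given. Every interval is a 95% interval for counting error in these libraries. Totals were 14152379 counts for Control and 11648655 for Tension. In bulk skin, fewer cells of a type and less RNA per cell cannot be told apart.

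STAT proteins carry the signal of cytokines from the cell membrane to the nucleus. A cytokine brings together the chains of its receptor, the JAK kinases bound to those chains phosphorylate a STAT, and the STAT pairs with another and binds DNA. SOCS proteins, among them CIS (the product of Cish), are made in response to that signal and shut it off at the receptor or the kinase. In skin the pathway serves keratinocytes, fibroblasts and immune cells alike. RNA counts measure the transcripts of these genes and not the phosphorylation of the proteins.

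All 9 genes have a window of 300 bases around a RefSeq start, 250 before it and 50 from it on, and 3 motifs were searched on either strand of these windows. The first is TTC and GAA with any 3 bases between them, the spacing that most STAT dimers bind. The second is TTC and GAA with any 4 bases between them, the wider spacing that STAT6 prefers. The third is GAAA and GAAA with any 2 bases between them (TTTC and TTTC on the other strand), the core of the element bound by interferon regulatory factors and by the complex that holds STAT2 and IRF9. Of the 32851 windows in the RefSeq table (GRCm38.p6), 8.30% hold the first motif, 6.95% the second and 3.44% the third. Counted by gene, a window with the motif was found for 9.55%, 8.01% and 3.99% of 27025 genes, and for 2, 1 and 3 of the 9 genes. At least 1 of the 3 motifs was found for 5 of the 9 genes and for 19.6% of all genes. Stretches with matches are shown for the member with the highest log2 fold change among those whose interval left out 0 (Stat2) and for the 3 SOCS genes, which went different ways. Capitals mark the matches, and each line reads 5′ to 3′ along the gene.
Stat2, 250 bases before the start, chr10:128270248-128270497, plus strand: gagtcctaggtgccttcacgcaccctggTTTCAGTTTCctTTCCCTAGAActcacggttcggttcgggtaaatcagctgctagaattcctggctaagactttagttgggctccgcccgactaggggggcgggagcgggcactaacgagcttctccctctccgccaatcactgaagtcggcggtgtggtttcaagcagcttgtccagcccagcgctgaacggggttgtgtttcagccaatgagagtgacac
Socs1, 250 bases before the start, chr16:10785537-10785786, minus strand: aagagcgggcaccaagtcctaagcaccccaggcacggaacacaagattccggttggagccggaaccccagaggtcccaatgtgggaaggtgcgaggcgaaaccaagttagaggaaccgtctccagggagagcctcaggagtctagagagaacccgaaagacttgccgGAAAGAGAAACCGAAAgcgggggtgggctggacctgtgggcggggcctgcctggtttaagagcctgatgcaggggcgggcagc
Socs3, 250 bases before the start, chr11:117969367-117969616, minus strand: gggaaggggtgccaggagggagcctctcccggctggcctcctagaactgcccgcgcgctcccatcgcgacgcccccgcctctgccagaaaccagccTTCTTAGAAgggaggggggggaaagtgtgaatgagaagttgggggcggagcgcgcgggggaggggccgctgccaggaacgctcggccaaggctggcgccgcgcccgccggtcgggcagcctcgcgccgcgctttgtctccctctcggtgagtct
Cish, 30 bases across the start, chr9:107296654-107296683, plus strand: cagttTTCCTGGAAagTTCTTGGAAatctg

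The Stat2 window holds the reverse form of the interferon element at position -222 and the wider STAT spacing at position -210, counted from the start at 1. Socs1 holds overlapping interferon elements at positions -83 and -77 and neither STAT spacing. Socs3 has 1 match to the narrow STAT spacing, at position -154, and Cish has a tandem of them at positions 1 and 12. Stat4 has the interferon element at position -97 of its second annotated start. The windows of Stat3, Stat5a, Stat5b and Stat6 hold none of the 3 motifs as written. A match is a run of letters and not a measured binding site. The annotation used for exon lengths (GENCODE M21) places some starts elsewhere than RefSeq, which the windows follow. Its Cish begins at base 107296026, where the RefSeq start is 107296659. Its Socs3, on the minus strand, begins at 117970047 where the RefSeq start is 117969366. Its Stat2 begins at 128270559 where the RefSeq start is 128270498.

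Most of the STAT genes were somewhat more abundant in the stretched skin, the feedback genes went both ways, and no member reached the study's threshold. By that threshold a gene is called when the product of its FPKM values (EV) is above 10 and their ratio is at least 2 or at most 0.5, here with 1 added to each FPKM. FPKM is the CPM (counts scaled to each library's total) per kilobase of exons. Of the 9 members 7 passed the EV filter, and 0 were called up, where 2.61% of 10911 genes were, and 0 down, where 2.44% were. Socs1 missed the filter with an EV of 9.996 and Stat4 with 1.36, and with no 1 added the products were 4.67 and 0.0222. At a lower threshold of 1.5-fold, with the 1 still added, 0 members were again called in either direction. Of the genes passing the EV filter 6.23% were called up and 7.40% down. For Stat2 that outcome rests on the added 1, since its ratio was 1.44 with it and 1.51 without it, where its product was 59.2. The log2 ratio of CPM, stretched over control, was wholly above 0 in its counting interval for 5 members (Stat2, Stat3, Stat5a, Stat6 and Socs3), where 18.1% of the 16255 genes above 3 counts in a library were. It was wholly below 0 for 1 member, Cish, where 33.5% of those genes were, and it included 0 for 3 (Stat4, Stat5b and Socs1). Scaling the libraries by the median of ratios raises every log2 value by 0.11, which gives 24.7% of all genes above 0 and 23.4% below. Under that scaling Stat5b joins the members above 0, making 6, and the members below stay at 1.

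**Figure D1:**
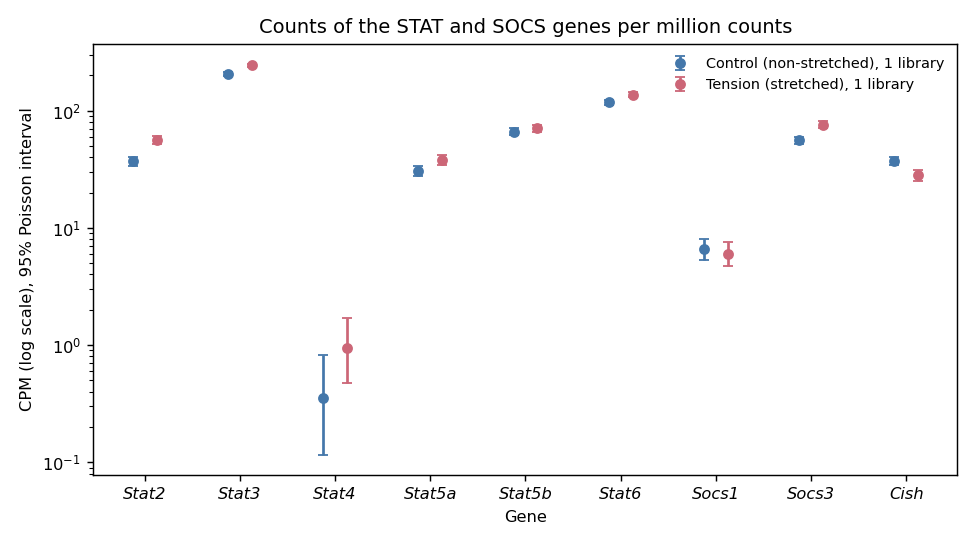
CPM of each gene (log axis) in the Control library (blue) and the Tension library (red), with exact 95% Poisson intervals of the counts. The intervals of the libraries do not overlap for Stat2, Stat3, Stat5a, Stat6, Socs3 and Cish, and Cish is the one of these that is lower in stretched skin.

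Stat2, whose protein joins IRF9 in the complex that answers type I interferon, had 525 counts in the control and 653 in the stretched skin, which is 37.1 and 56.1 CPM. The log2 fold change was 0.60 (interval 0.43 to 0.76), and 12.1% of all measured genes had a higher one. On mm10 it spans bases 128270559 to 128292849 of chromosome 10. It is the member with the largest difference among those measured on more than a few counts.

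Stat3, which serves IL-6, leukemia inhibitory factor, oncostatin M and IL-10, had the most counts of the 9 genes. They were 2900 in the control and 2835 in the stretched skin, or 205 and 243 CPM. That is 0.25 on the log2 scale (interval 0.17 to 0.32), a difference of 18.8% in CPM. Stat6, which serves IL-4 and IL-13, the cytokines of alternative macrophage activation, was close to it. Its 1668 and 1591 counts are 118 and 137 CPM, or 0.21 as log2 fold change (interval 0.11 to 0.31). The difference between the log2 fold changes of Stat3 and Stat6 was 0.04 (interval -0.09 to 0.16), so their order is not fixed by these counts.

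Stat5a and Stat5b encode near-identical factors that serve growth hormone, prolactin and the IL-2 and IL-3 families of cytokines, and they lie beside each other and Stat3 on chromosome 11. Stat5a had 431 counts in the control and 443 in the stretched skin (30.4 and 38.0 CPM, log2 fold change 0.32, interval 0.13 to 0.52). Stat5b had 940 and 829 counts (66.4 and 71.2 CPM, log2 fold change 0.10, interval -0.04 to 0.24). The log2 fold changes of this pair differed by 0.22 with an interval that reached 0 (-0.02 to 0.46). Of the 76-base stretches of Stat5a 5.04% also occur in Stat5b, and 6.88% of those of Stat5b occur in Stat5a.

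Stat4, which serves IL-12 in T and NK cells, was near the limit of detection with 5 counts in the control and 11 in the stretched skin (0.353 and 0.944 CPM). Its log2 fold change of 1.42 is the highest of the 9 in size, but the interval ran from -0.22 to 3.29, so no difference was detectable at this depth. It also shares 19.4% of its 76-base stretches with Gm28177, an annotated gene that overlaps it on the same strand. The 12 markers of T and NK cells were low as well. They summed to 28.2 CPM in the control and 35.3 CPM in the stretched skin, and 11 had more than 3 counts in a library, among them Cd247 (158 and 107 counts), Cd3g (51 and 56), Lck (36 and 39) and Cd4 (15 and 56). Of these 4, Cd4, which some macrophages also carry, had an interval above 0 (log2 fold change 2.18, interval 1.34 to 3.11), and the other intervals included 0. Cd247 shares 53.4% of its stretches with other genes, and without it the sum was 17.0 and 26.1 CPM. Ncr1, a marker of NK cells named after its values were seen, had 0 and 5 counts. Of the 11 genes with more than 3 counts in a library 3 had intervals above 0 and 0 below. The part of these cells in the value of Stat4 was not tested.

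The SOCS genes, which switch the signal off, diverged. Socs3, the feedback inhibitor of gp130 signalling, was higher in stretched skin, with 795 counts against 884 (56.2 and 75.9 CPM, log2 fold change 0.43, interval 0.29 to 0.57). Cish, whose protein is induced by STAT5 and blocks STAT5-binding receptors, was lower, with 527 counts against 326 (37.2 and 28.0 CPM, log2 fold change -0.41, interval -0.62 to -0.21). Socs1, the inhibitor of interferon and IL-4 signalling that acts on JAK kinases directly, had 93 and 70 counts (6.57 and 6.01 CPM). Its log2 fold change of -0.13 had an interval of -0.60 to 0.33, and the sign of its point value is not resolved at this depth. Other genes on the opposite strand (Gm17040 and Gm17041) cover 11.5% of the exonic bases of Cish, and the counting program's use of strand is not given in the sources used here.

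**Figure D2:**
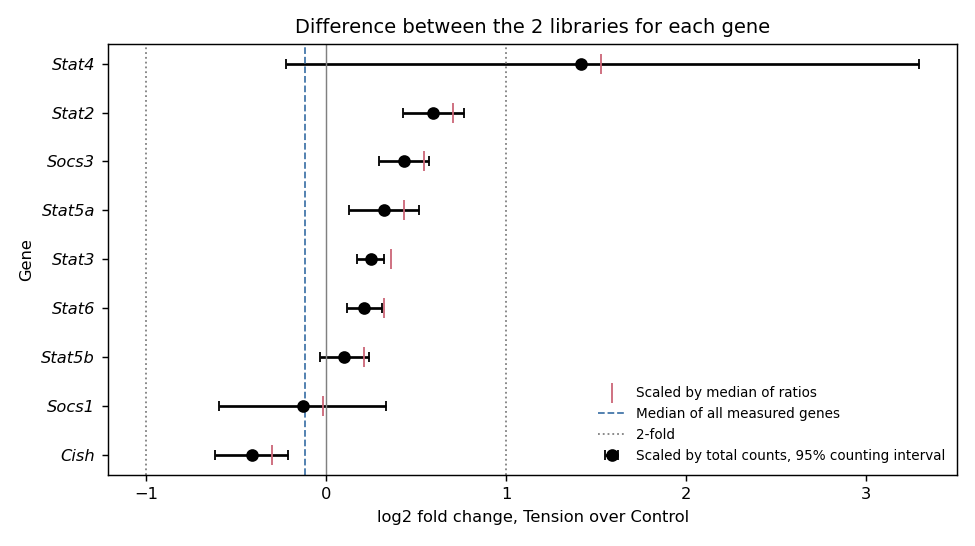
The log2 fold change of each gene, Tension over Control, with its 95% counting interval (black), the value under scaling by the median of ratios (red tick), the median of all measured genes (dashed, -0.12) and the 2-fold limits (dotted). The values run from -0.41 for Cish to 1.42 for Stat4, whose interval is by far the widest.

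The difference between the log2 fold changes of a pair of genes does not depend on how the libraries are scaled. Of the 36 pairs of members, 16 had a difference with an exact interval that left out 0. Socs3 exceeded Cish by 0.85 (interval 0.60 to 1.09), and Stat2 exceeded Cish by 1.01 (interval 0.74 to 1.27). Cish was also below each of the remaining STAT genes, from a gap of 0.51 with Stat5b (interval 0.27 to 0.76) to one of 1.83 with Stat4 (interval 0.17 to 3.72). It was not separated from Socs1 (gap 0.28, interval -0.23 to 0.79). Socs3 exceeded Stat3, the factor it restrains downstream of gp130, by 0.19 (interval 0.03 to 0.35). Stat2 exceeded Stat3 by 0.35 (interval 0.16 to 0.53) and Stat6 by 0.38 (interval 0.19 to 0.58). None of the 8 pairs of neighbours in the order of log2 fold changes had an interval that left out 0. So the ends of the order were separated by more than counting error and adjacent genes were not.

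Levels between genes were compared per length of exons. In control skin the order of FPKM was Stat6 (26.8), Stat3 (21.5), Socs3 (19.4), Stat5b (12.0), Stat2 (6.26), Cish (5.80), Stat5a (4.27), Socs1 (2.26) and Stat4 (0.0912). Only Stat2 and Cish among the neighbours in that order did not differ beyond counting error, with a log2 ratio of FPKM of 0.11 (interval -0.07 to 0.29). In stretched skin Socs3 (26.2) came level with Stat3 (25.5), with a log2 ratio of 0.04 (interval -0.07 to 0.15), and Cish (4.36) came below Stat5a (5.33), with a log2 ratio of Stat5a to Cish of 0.29 (interval 0.08 to 0.50). Stat6 (31.0) was first in stretched skin also, followed after Socs3 and Stat3 by Stat5b (12.8) and Stat2 (9.46), and Socs1 (2.07) and Stat4 (0.244) were again last. The order at the top depends on the annotation. With the longest transcript in place of all exons, a choice made after the data were seen, Stat3 came first in control skin (33.9 against 31.2 for Stat6) and in stretched skin (40.3 against 36.2). On that length Socs3 (29.7) was below Stat3 in stretched skin rather than level with it, and Cish (7.93) and Stat5a (7.69) were not separated in control skin (log2 ratio 0.04, interval -0.14 to 0.23). Stat5b (13.65) and Stat2 (12.75) were then not separated in stretched skin (log2 ratio 0.10, interval -0.05 to 0.25).

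Of the summed FPKM of the 6 STAT genes, Stat6 held 37.8% in the control and 36.7% in the stretched skin, and Stat3 held 30.3% and 30.2%. The share of Stat2 was 8.83% and 11.2%. The sum itself was 70.9 FPKM in the control and 84.5 in the stretched skin. Among the 3 SOCS genes the balance differed more, with Socs3 at 70.7% of their summed FPKM in the control and 80.3% in the stretched skin, and Cish at 21.1% and 13.3%. These shares are descriptions of 1 library each.

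**Figure D3:**
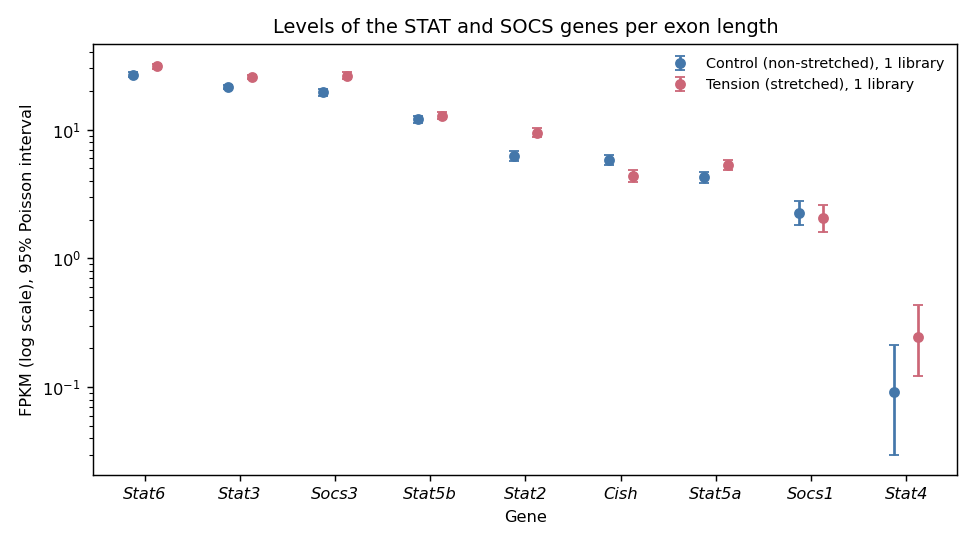
FPKM of each gene (log axis), ordered by its level in the Control library, with 95% Poisson intervals of the counts. Stat6, Stat3 and Socs3 lie highest in each library, between 19.4 and 31.0 FPKM, and Stat4 lies lowest, below 0.3 FPKM.

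Over the 9 genes the median of the log2 fold changes was 0.25, and 7 values were above 0. The median was 0.28 for the 6 STAT genes, all of which had positive values, and -0.13 for the 3 SOCS genes. The median of all 16255 measured genes was -0.12, and 6262 of them had positive values. Other SOCS genes also differed in direction. Socs2, a STAT5 target that restrains growth hormone signalling, had 115 and 127 counts (log2 fold change 0.42, interval 0.05 to 0.80). Its log2 fold change was positive where that of Cish, a target of the same factor, was negative. Socs4 (134 and 71 counts, log2 fold change -0.64) and Socs7 (758 and 500 counts, -0.32) had intervals below 0, while those of Socs5 (0.15) and Socs6 (-0.12) included 0.

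**Figure D4:**
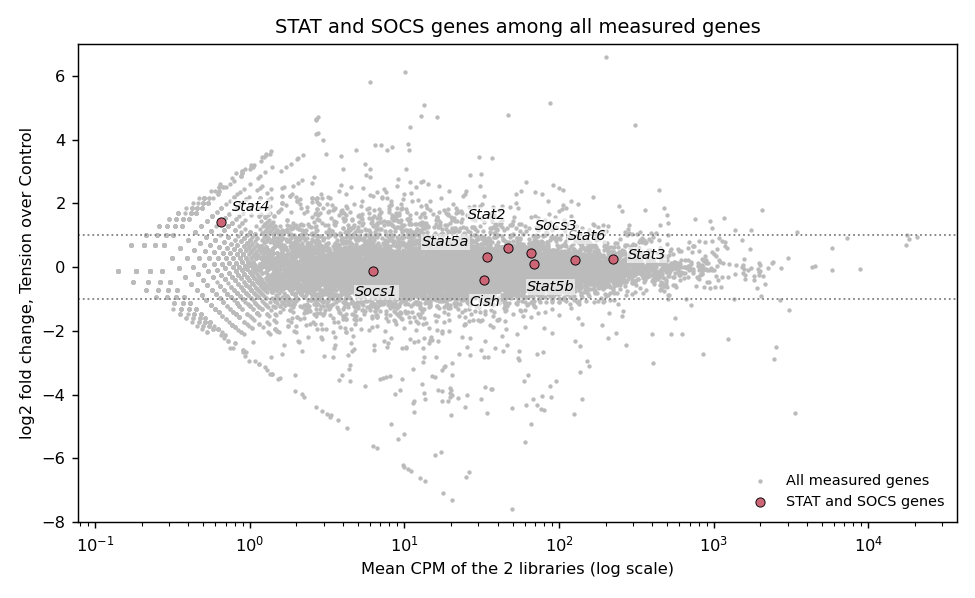
Each measured gene (grey) and the STAT and SOCS genes (red) by mean CPM of the libraries (log axis) and log2 fold change, Tension over Control, with the 2-fold limits dotted. Apart from Stat4 at under 1 CPM, the STAT and SOCS genes lie inside the 2-fold limits.

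The 4 JAK kinases, which phosphorylate the STATs, had a median log2 fold change of 0.16, with 3 intervals above 0 and 0 genes called. Jak1 had 2734 counts in the control and 2499 in the stretched skin (log2 fold change 0.15, interval 0.07 to 0.23), and Jak3, the kinase of leukocytes that binds the common gamma chain, had 278 and 305 (0.41, interval 0.18 to 0.65). Tyk2 was at 0.17 (interval 0.01 to 0.33) and Jak2 at -0.07 (interval -0.23 to 0.08), which is 0.04 under scaling by the median of ratios. Of the 12 other inhibitors of the pathway (phosphatases, PIAS and adaptor proteins) 4 had intervals above 0 and 3 below, with 0 called and a median of -0.07, which is 0.04 under scaling by the median of ratios. Ptpn11, which encodes the phosphatase SHP2, had 3245 and 1925 counts (log2 fold change -0.47, interval -0.55 to -0.39), whereas Ptpn1 (1427 and 1191 counts) was at 0.02 (interval -0.09 to 0.13).

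Among the receptors upstream, some log2 fold changes were above 1, and 4 genes were called. For the IL-4 and IL-13 route to STAT6, Il4ra had 924 counts in the control and 1432 in the stretched skin (log2 fold change 0.91, interval 0.79 to 1.03), and Il13ra1 had 1421 and 1287 (0.14, interval 0.03 to 0.25). All 10 receptors of the gamma chain, IL-4 and IL-13 list had positive log2 fold changes, with 9 intervals above 0, a median of 0.92 and 0 called, or 1 (Il2rg) when no 1 is added to FPKM. Il2rg, the gamma chain itself, had 160 and 272 counts (1.05, interval 0.76 to 1.34), and it shares 25.9% of its stretches with an overlapping gene. For the gp130 route to STAT3, Il6st, which encodes gp130, had 3494 and 3739 counts (0.38, interval 0.31 to 0.45), with Osmr at 0.46, Lifr at 0.40 and Il11ra1, which shares 35.6% of its stretches with Gm13305, at 0.02. Of the 8 receptors of this list 4 had intervals above 0, 1 below and 3 included 0, with a median of 0.35 and 0 called. The one below was Cntfr, the receptor of ciliary neurotrophic factor, named after its values were seen (586 and 236 counts, -1.03, interval -1.26 to -0.81). Its FPKM ratio of 0.489 is a call when no 1 is added. The 5 interferon receptors had a median of 0.26, of which Ifnar2 was the highest (326 and 422 counts, 0.65, interval 0.44 to 0.87). For the IL-3 and GM-CSF route to STAT5, the beta chains Csf2rb (331 and 711 counts, 1.38, interval 1.19 to 1.58) and Csf2rb2 (212 and 490 counts, 1.49, with 10.4% of its stretches shared with Csf2rb) were called up, as was Il10ra, the IL-10 receptor (132 and 334 counts, 1.62). Csf3r, the receptor of granulocyte colony-stimulating factor (50 and 235 counts, 2.51), was called too, but its product of FPKM with no 1 added is 5.47, below the limit of 10. In that hormone and colony-stimulating factor list 3 of 11 genes were called up, and 4 with no 1 added, when Csf2ra and Il3ra join and Csf3r leaves. The 5 IL-10 and IL-20 family receptors had a median of 0.14 (-0.0066 without genes that share stretches) with 2 intervals above 0 and 2 below, and of 3 IL-12 and IL-23 receptors, the route to STAT4, 2 had more than 3 counts in a library, 1 with an interval below 0. That one was Il12rb2 (175 and 95 counts, -0.60, interval -0.98 to -0.23), which shares 36.9% of its stretches with other genes. The receptors of growth hormone (Ghr, 1938 and 1288 counts, -0.31, interval -0.41 to -0.21) and leptin (Lepr, 818 and 403 counts, -0.74, interval -0.92 to -0.57) were lower.

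Most of the ligands were scarcely sequenced. Of 32 cytokine genes 18 had more than 3 counts in a library, and their median log2 fold change of 0.78 was 0.41 with 1 CPM added to both values. Of the 18, 5 had intervals above 0, 2 below and 11 included 0, and 0 were called. By counts the leading ligands were Lep, Clcf1, Ctf1 and Lif. Clcf1, a gp130 ligand, had 70 counts in the control and 140 in the stretched skin (log2 fold change 1.28, interval 0.86 to 1.72), Ctf1, another, had 102 and 50 (-0.75, interval -1.27 to -0.25), and Lif had 64 and 62 (0.24, interval -0.29 to 0.76). Leptin had 292 and 136 counts (-0.82, interval -1.13 to -0.52). Il4 and Ifng each had 0 counts in the control and 1 in the stretched skin, and Il13 and Ifnb1 had 0 in each, so a difference in these 4 genes, named after their values were seen, was not detectable at this depth. Osm, which encodes the gp130 ligand oncostatin M and was also named after its values were seen, had 2 counts in control and 23 in stretched skin, with a counting interval of the log2 ratio from 1.79 to 6.93. A count of 3 corresponds to 0.212 CPM in the control and 0.258 CPM in the stretched skin.

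The transcripts that STATs are known to drive differed by list. The 18 interferon response genes had the highest median of the target lists, with all 18 intervals above 0, a median of 1.90 and 10 called up, or 7 with no 1 added to FPKM, when Ifit1, Oas1a and Usp18 miss the limit on the product. Ifit1 (48 and 193 counts, 2.29), Irf7 (181 and 587 counts, 1.98) and Bst2 (225 and 687 counts, 1.89) were among those called. Irf9, the partner of STAT2, had the smallest difference of the list (474 and 602 counts, 0.63, interval 0.45 to 0.80), and that of Stat2 (0.60) was of the same size. The 18 STAT3 target genes had a median of 0.11 with 9 intervals above 0 and 6 below. Timp1, a metalloproteinase inhibitor, was the one called up (102 and 642 counts, 2.93, interval 2.63 to 3.25), while Ccnd1, which encodes cyclin D1, was lower (3622 and 1647 counts, -0.86, interval -0.94 to -0.77), with 20.6% of its stretches shared with LTO1. The 15 STAT6 target genes had a median of 0.44 with 9 intervals above 0 and 3 below. One of those below was Gata3 (2055 and 1042 counts, -0.70, interval -0.81 to -0.59). The others, named after their values were seen, were Arg1 (216 and 107 counts, -0.73, interval -1.08 to -0.39) and Pparg (399 and 218 counts, -0.59). Chil3, which encodes Ym1 (31 and 214 counts, 3.07, with 12.5% of its stretches shared), and the chemokine gene Ccl22 (65 and 136 counts, 1.35) were called up, the latter only with the 1 added (product 9.92 without it), and Mrc1, which encodes CD206, had 1649 and 2613 counts (0.94, interval 0.86 to 1.03). The 10 STAT5 target genes had a median of 0.09. Igf1 had 1314 and 1258 counts (0.22, interval 0.11 to 0.33), and Ccnd2, which encodes cyclin D2, had 5378 and 2492 (-0.83, interval -0.90 to -0.76). Several target genes answer to other factors as well, so these lists are not readouts of a single STAT. Some genes are in more than 1 list, so the lists are not separate observations. Ccnd1 is in the STAT3 and STAT5 target lists, and Il4ra and Il12rb2 are in a receptor list and a target list. Csf3r is in a receptor list and among the neutrophil markers.

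**Figure D5:**
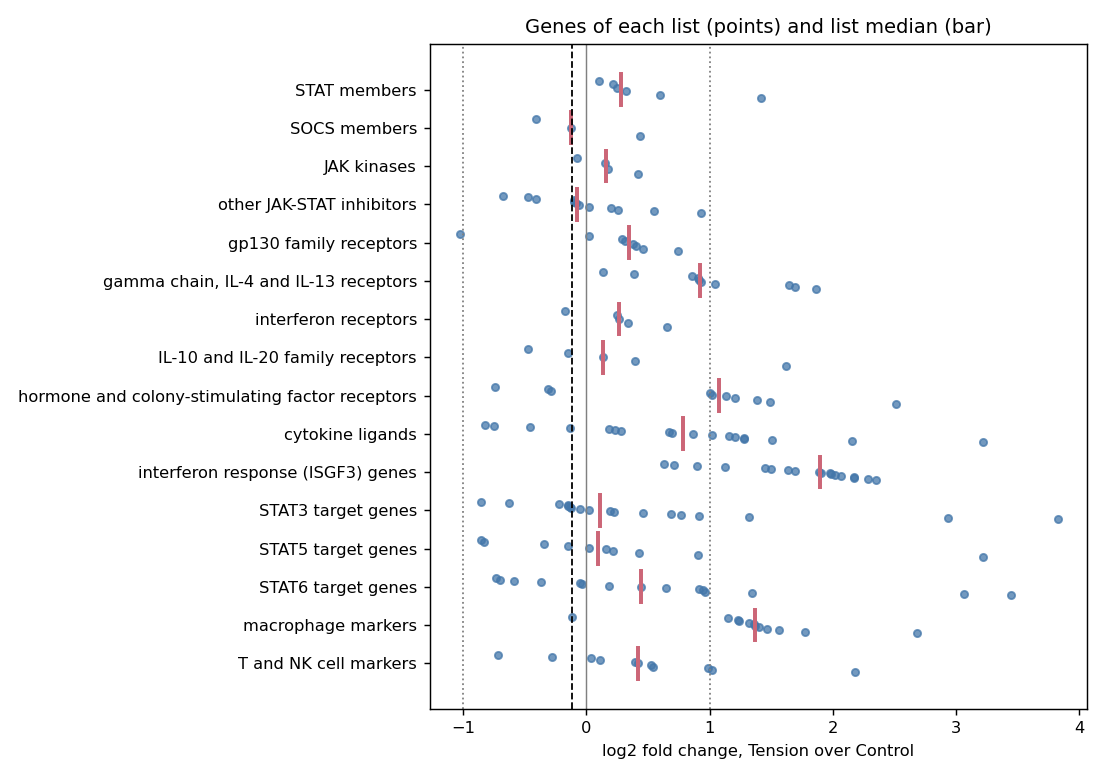
The log2 fold change, Tension over Control, of each measured gene (points, spread vertically for legibility only) and the median (red bar) of the STAT and SOCS genes, the pathway lists and the markers of macrophages and of T and NK cells. The dashed line is the median of all measured genes (-0.12), the dotted lines are 2-fold, and the interferon response genes (median 1.90) lie far to the right of the STAT genes (median 0.28).

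Cell type markers moved between the libraries beside these values. The 12 macrophage markers summed to 800 CPM in the control and 1986 CPM in the stretched skin, with 11 called up and a median of 1.37 on the log2 scale, and Adgre1, which encodes F4/80, had 472 and 1148 counts. The neutrophil markers summed to 14.4 and 70.2 CPM over 7 genes, of which 5 had more than 3 counts in a library. The mast cell markers summed to 260.5 and 360 CPM over 7 genes, with 5 intervals above 0 and 1 below. The endothelial markers summed to 224 and 292 CPM over 6 genes, with 3 intervals above 0, 1 below and 2 that included 0. The fibroblast markers summed to 41189 and 77528 CPM over 8 genes, nearly all of it from the collagen genes Col1a1, Col1a2 and Col3a1, and the sum of the remaining 5 was 2244 and 2601 CPM. The keratinocyte markers summed to 18664 and 18300 CPM over 10 genes, with 4 intervals above 0 and 5 below, and to 4862 and 3589 CPM over the 6 genes other than Krt5, Krt14, Krt1 and Krt10. The adipocyte markers summed to 1749 and 1129 CPM over 6. The skeletal muscle markers summed to 27003 and 16081 CPM over 8 genes, and to 20572 and 15811 CPM without the myosin gene Myh4. These sums without the leading genes were added after the data were seen. These cells all use STAT signalling, and the part of the cell make-up of the skin in the values of the STAT, SOCS, receptor and target genes was not tested.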

How the data were processed

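Whole-layer skin RNA was read from one end (76 bases). The study's methods name FASTX-Toolkit for quality filtering, and the submitters' processing notes name TopHat2 and mm10. The study took its own FPKM from Cufflinks, and those values are not used here. The authors deposited raw counts of reads per gene symbol, 1 column for each library. Which program counted the reads, and how it handled strand and reads of more than 1 gene, is not given in the sources used here.

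From the counts, CPM used each library's total and FPKM the union of exons in GENCODE M21 (23384 genes matched by name, 651 by synonym, 386 without a length). Counts of 3 or fewer were set to 3 in ratios. Ratios carry exact Clopper-Pearson intervals, differences between a pair of ratios exact conditional odds ratio intervals, and levels exact Poisson intervals, all at 95%. Intervals cover counting error only, since each group has 1 library. They treat reads as independent, but reads without molecular identifiers are not independent molecules, so the intervals may be too narrow even for that error. Calls followed the study's rule with 1 added to each FPKM, an addition of this work. No test was possible with 1 library per group. Libraries were also scaled with DESeq2 1.42.0 (median of ratios), with edgeR 4.0.16 (TMM), by the upper quartile and by totals that leave out the 50 top genes. Further alternatives were other pseudocounts, EV limits, fold limits and lengths, CPM in place of FPKM, 1 CPM added, at least 20 counts, and lists without genes sharing 10% or more of their 76-base stretches. Shared stretches were counted over all transcripts of the annotation. Scripts were tested on simulated data.

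The members and gene lists were chosen with earlier results of these data known. The text names the members, other SOCS genes, the JAK kinases and, from the other lists, genes that were called or among the 4 with the most counts, with exceptions stated, and 1 family gene the rule covers is not reported here. Adgre1 and the other called markers fall under this rule. Python 3.11.15, scipy 1.17.1 and R 4.3.3 were used.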

Additional observations from a re-analysis of the deposited data

How the results depend on the processing

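Of 53 values of the member summaries recomputed under the alternatives, 50 stayed within the counting interval or within 1.5 times the count, and 0 changed sign. The exceptions were all of the members' median (0.25 with total counts), which was 0.35 with TMM, 0.36 with median of ratios and 0.35 with upper quartile, because these scalings add the same amount to every log2 value. The counts of members called up and down were 0 under all 11 alternatives for calls, and 5 or 6 intervals lay above 0 and 1 below under every scaling. The 1.5-fold alternative kept the 1 added to FPKM, and without it Stat2 has a ratio of 1.51. The SOCS median approached 0 (-0.018 with median of ratios) without changing sign. Of 168 values of the other lists 19 left the interval, in 6 lists, and 7 changed sign, in 4. The inhibitors' median went from -0.073 to 0.030 with TMM, 0.037 with median of ratios and 0.028 with upper quartile, and that of the IL-12 and IL-23 receptors from 0.24 to -0.11 with 1 CPM added, -0.60 with at least 20 counts and 1.09 without genes that share stretches. Of 484 values of 121 named or eligible genes, 123 left the counting interval without reversing, in 39 genes, and 3 reversed, in 1 gene. Stat3 (0.25) and Stat6 (0.21) were among the 39, at 0.36 and 0.32 with median of ratios. Of the 121 genes 4 changed sign. The main interval included 0 for Jak2, Pias2 and Tek, and left it out for Acta1, a skeletal muscle marker that went from -0.072 to 0.031 with TMM, 0.039 with median of ratios and 0.030 with upper quartile. With the longest transcript, 6 neighbouring pairs in the order of levels differed beyond counting error in control skin and 7 in stretched skin, against 7 and 7. No paired analysis was possible because each condition has a single library, which also means that none can be dropped. Among the members depth limits Stat4 and Socs1, whose intervals are the widest.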

Other observations

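The 6 adipocyte markers all had intervals below 0, with a median log2 value of -0.78, and leptin (-0.82) and its receptor Lepr (-0.74) were of the same size. The 7 STAT4 target genes were mostly scarce, 6 of them with more than 3 counts in a library, and Hlx, a homeobox gene, was the one called up (62 and 135 counts, log2 fold change 1.40, interval 0.96 to 1.86), a call lost when no 1 is added to FPKM (product 9.78).

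Cish and Pias1, an inhibitor of STAT signalling on the same chromosome, had identical counts, 527 for Control and 326 for Tension. The genes do not overlap, since Cish lies on chromosome 9 from 107296026 to 107302784 and Pias1 from 62878368 to 62987924. Equal pairs of counts were not rare, for 371 of the 10718 genes with at least 100 counts in each library had the same counts in both libraries as another such gene.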
